A study of Homo sapiens with 8 samples.

Results

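The genes described here build and drive the cytoskeleton: kinesins and their light chains, subunits of dynein and dynactin, myosin heavy and light chains, tubulins, centrosomal CEP proteins, ciliary transport proteins (IFT and BBS) and microtubule-associated proteins. They were chosen by the prefix of their symbol in the m6A peak table that the authors deposited, without KIF7, the kinases named MAP4K, pseudogenes, antisense and divergent transcripts. This gave 157 of the 10987 peaks in the table, on 93 of 7081 named genes. The rule used no measured value. It also allowed CKAP and gamma-tubulin genes, which have 0 peaks in the table, and it took in MYLK, a kinase that phosphorylates the myosin regulatory light chain.

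Kinesins and dynein are motors that walk along microtubules, most kinesins towards the plus end and cytoplasmic dynein towards the minus end. Dynactin serves as the activating partner of dynein. Tubulins form the microtubule, microtubule-associated proteins bind along it, and the centrosome nucleates it. Myosins move on actin. N6-methyladenosine (m6A) is a modified base of mRNA that is most abundant near stop codons and in 3' UTRs, and METTL3 is the catalytic subunit of the enzyme complex that places most of it.

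The cells were BCPAP, a line from a papillary thyroid carcinoma, in a control group and in a group with knockdown of METTL3. Each group was sequenced as input RNA without antibody and as RNA immunoprecipitated with an anti-m6A antibody, which gave 4 groups of 2 libraries or 8 together. The titles of the knockdown libraries read sh1 in one replicate and sh3 in the other. The labels do not say whether replicates were separate cultures, and the treatment of the control cells is named there only as control. The deposited table gives 1 log2 fold change, 1 p-value and 1 false discovery rate (FDR) per peak and no value per library, so no replicate spread can be attached to any value below. The depth behind a peak is unknown, since read counts were not used here. METTL3 itself has 0 peaks in the table, so the knockdown could not be checked from it. "Lower" and "higher" mean knockdown against control, a reading that the column header does not spell out; under the opposite reading every direction below would swap. Peaks with a deposited FDR under 0.05 are the called ones. Of 6 thyroid marker genes only PAX8 has a peak in the table, and of 4 epithelial markers only KRT8 has one, but a missing peak does not show a missing transcript.

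Sequence could be set beside the data where a peak covers an annotated transcript start. Of the 93 genes, 76 have an entry among the RefSeq start-site sequences (GRCh38.p14), and 5' UTR peaks of 10 of them cover the first 50 transcribed bases of at least 1 start, 11 starts in all. The kinesin motors among these are shown because their peaks begin at or just before the start. Each line gives 30 bases, 5′ to 3′ on the strand of the gene, with the 15 transcribed bases in capitals.
KIF11 (chr10:92593115-92593144, plus strand): gccgagtcgttgcttAGTTTCTGGGGATTC
KIF2A (chr5:62306191-62306220, plus strand): ggtgcgggccctcccACTCTACCCCGCGCC
KIFC1 (chr6:33391808-33391837, plus strand): tgggtggtggccgttGGAATTCAAAAGTGG
KIF4A (chrX:70290089-70290118, plus strand): agctccggctgggacAGGGCGGCGGGAGGC
KIF4B (chr5:155013740-155013769, plus strand): tggtgtctctgggagGGATTTGAAACTTGG

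KIF11, KIF2A and KIF4A start with an adenosine in this annotation, while KIFC1 and KIF4B start with a guanosine. An adenosine was the first base of 5 of the 11 starts under these peaks (45.5%) and of 44.4% of all 35116 starts in the RefSeq table. GGACT, the most common m6A consensus word, was found on the gene strand within the first 50 bases of 1 of the 11 starts, that of KLC1, against 4.90% of all starts. On the opposite strand it was in 0 of the 11 and in 4.91% of all starts. With GGAC followed by any base, which includes GGACT, the counts were 3 of 11 on the gene strand (KIF4A, KIF4B and KLC1) against 18.9% of all starts, and on the opposite strand 1 of 11 against 17.6%. These are matches of letters in a window and do not mark a methylated base. The bases under the other peaks were not analysed here.

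Of the 157 peaks, 33 were called (21.0%), where 17.1% of all peaks were called. Of these, 19 peaks were lower, or 12.1% against a background of 10.6%, and 14 were higher, or 8.92% against a background of 6.52%. The called peaks lie on 27 genes, of which 16 were lower in every called peak, 10 were higher in every called peak, and 1, MAP1B, was called both ways. For 10 of the 33 called peaks the span also overlaps another RefSeq gene, and the table gives no strand. They are peaks of KIF2A, KIF15, MYLK, MYL6, MYL6B, MYL12A, MYO9B, IFT20 and MAP1S. With 1 peak per gene, that with the smallest p, 16 of 93 genes were lower (14.0% of all named genes were) and 11 were higher (8.26% of all named genes were). The shares of lower and higher peaks among these genes were thus near those of the whole table. The called changes were modest: the called lower peaks centred on -0.44 (median log2 fold change per the authors' deposited table, or 0.738-fold), and the called higher peaks on 0.43 (1.35-fold). The peaks with the largest fold changes were not the called ones, since the median absolute log2 fold change was 0.44 among called and 0.59 among the 124 other peaks.

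The sign over all peaks went the other way from the table as a whole. The median log2 fold change of the 157 peaks was 0.24 and 88 peaks (56.1%) had a positive value, whereas the median of all peaks was -0.24 and 44.7% were positive. No peak of these genes has a value between -0.15 and 0.11 per the authors' deposited table, so the median moves from one side of this gap to the other with a small change in the share of positive peaks. Among 5' UTR peaks the medians were 0.34 for these genes and -0.14 for all peaks, among exon peaks 0.26 and 0.23, and among 3' UTR peaks -0.24 and -0.30. The difference between these genes and the table was therefore widest in the 5' UTR, where 29 of 43 peaks were positive (67.4%, against 48.9% of all 5' UTR peaks). Of those 43 peaks 5 were called (11.6%, against 16.8% of all 5' UTR peaks).

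**Figure D1:**
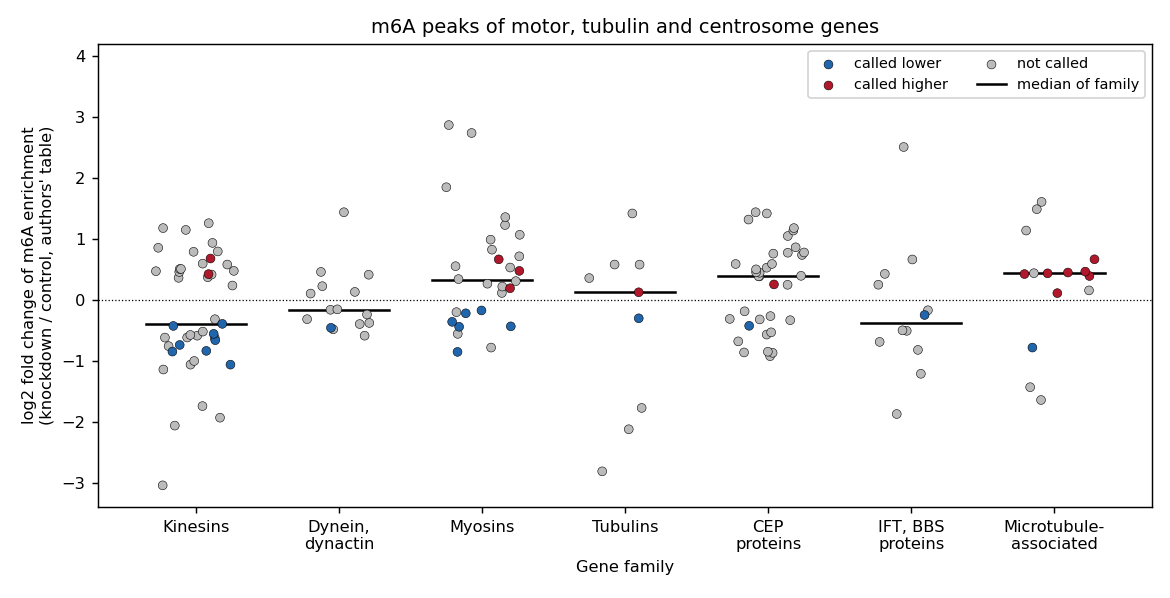
The log2 fold change of m6A enrichment (knockdown over control, the authors' values) of each of the 157 peaks, by gene family, with called lower peaks in blue, called higher peaks in red, other peaks in grey and the family median as a line. Kinesins hold 8 of the 19 called lower peaks, and microtubule-associated proteins hold 7 of the 14 called higher peaks.

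Kinesins held 8 of the 19 lower peaks and 2 of the 14 higher ones. Of 43 peaks on 22 kinesin genes, 8 were called lower, 2 higher and 33 were not called. The 8 lower peaks (18.6%, against a background of 10.6%) lie on 6 genes, of which KIFC1, KIF2A, KIF15 and KIF18B act in the mitotic spindle. KIFC1, a minus-end-directed kinesin that bundles spindle microtubules and clusters extra centrosomes, had the steepest called fall among all these genes, with a 3' UTR peak at -1.06 (0.480-fold, ENSG00000237649, chromosome 6, 33409656 to 33409896, FDR 0.0263 per the authors' deposited table). Its other peak, in the 5' UTR and over the start shown above, had 0.46 with an FDR of 0.0537 per the authors' deposited table. The 2 places of KIFC1 therefore lay on opposite sides of 0, with the 5' UTR peak just outside the threshold. That peak spans 6212 bases, so the place of its change is not resolved.

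KIF2A, which removes tubulin from microtubule ends, was the kinesin with the most called peaks. Its 3' UTR held a peak at -0.85 (0.556-fold, ENSG00000068796, chromosome 5, 62388565 to 62388715, FDR 0.00316 per the authors' deposited table). A second entry covers nearly the same bases, 62388567 to 62388716, at -0.83 (FDR 0.00347 per the authors' deposited table), and the 2 entries count as 1 place. The span of this place also lies within DIMT1, a neighbouring gene, and the table gives no strand. Another called 3' UTR peak of KIF2A, at 62385685 to 62386045 and outside DIMT1, had -0.39 (FDR 0.0288 per the authors' deposited table). At the KIF2A start the 2 overlapping 5' UTR peaks had -1.0 and -1.06 and were not called (FDR 0.184 and 0.200 per the authors' deposited table). All 5 KIF2A peaks were negative.

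KIF15, a plus-end-directed motor that helps to keep the spindle bipolar, had a 3' UTR peak at -0.74 (0.600-fold, chromosome 3, 44843146 to 44851945, FDR 0.00148 per the authors' deposited table). KIF18B, which shortens astral microtubules at their plus ends, had -0.42 in its 3' UTR (chromosome 17, 44926172 to 44926470, FDR 0.0224 per the authors' deposited table). KIF3A, a subunit of the heterotrimeric kinesin-2 motor of ciliary transport, had -0.56 at a span labelled exon 8 of 17 (chromosome 5, 132702901 to 132715850, FDR 0.0288 per the authors' deposited table). KIF9, a kinesin of motile cilia, had -0.66 in its 5' UTR (chromosome 3, 47275372 to 47281056, FDR 0.00813 per the authors' deposited table). The spans of KIF15, KIF3A and KIF9 run over 8800, 12950 and 5685 bases with introns, so the place of the change within them is not resolved. Without peaks that span 2000 bases or more, 5 of the 8 lower kinesin peaks were left, those of KIFC1, KIF18B and KIF2A.

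The 2 kinesin peaks that rose were on KIF11 and KIF3C. KIF11 (Eg5), the motor that pushes spindle poles apart, rose by 0.68 in a 5' UTR peak that begins at the first base of the start shown above (1.60-fold, ENSG00000138160, chromosome 10, 92593130 to 92593429, FDR 0.0355 per the authors' deposited table). KIF3C, another kinesin-2 subunit, rose by 0.42 in its 3' UTR (chromosome 2, 25928034 to 25928901, FDR 0.000302 per the authors' deposited table). At an FDR under 0.01, 4 lower kinesin peaks and 1 higher one were left, with no share of all peaks at that threshold set beside them.

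Among kinesins without a call, the steepest value was that of KIF27, a cilium-associated kinesin, at -3.04 with an FDR of 0.158 per the authors' deposited table, at a place whose annotated exon belongs to another gene identifier. KIF4A, a chromosome-bound motor, had -0.62 and its intronless copy KIF4B had 1.26 at the starts shown above, with FDRs of 0.191 and 0.240 per the authors' deposited table. Reads of such copies can be placed on either gene, so both values are uncertain. The kinesin light chains, which link the motor to its cargo, had 10 peaks on KLC1, KLC2 and KLC4. Of these, 0 were called (against a background of 17.1%). Of the 8 peaks assigned to KLC1, 6 lie outside the RefSeq bounds of that gene, 4 of them within its neighbour XRCC3.

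The dynein and dynactin genes had 15 peaks on 10 genes, with 1 called (6.67%, against a background of 17.1%). DYNLL2, a light chain shared by dynein and other complexes, had -0.46 in its 3' UTR (0.729-fold, ENSG00000264364, chromosome 17, 58090595 to 58090955, FDR 0.000126 per the authors' deposited table). DCTN1, the dynactin subunit that binds dynein and microtubules, had -0.16 with an FDR of 0.0513 per the authors' deposited table, just outside the threshold. DYNLT1, another dynein light chain, had -0.15 with an FDR of 0.0575, and the longer of 2 overlapping DCTN6 peaks had -0.39 with an FDR of 0.0562, per the authors' deposited table. That DCTN6 peak spans 39593 bases and also overlaps the neighbouring genes LEPROTL1 and MBOAT4, so the gene it belongs to is uncertain. The heavy chain DYNC1H1, the motor subunit itself, had 3 peaks from -0.24 to 1.44, none of them called. At an FDR under 0.1 the family had 5 lower peaks and 1 higher peak, so the count of 1 depends on the threshold. No share of all peaks at that threshold was set beside these counts.

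The myosins had 28 peaks on 20 genes, of which 6 were called lower (21.4%, against a background of 10.6%) and 3 higher (10.7%, against a background of 6.52%). Most myosin peaks were positive, 19 of 28 (67.9%, against 44.7% of all peaks), with a median of 0.33. Of the 6 lower peaks 5 were among the 11 in 3' UTRs, where 15.9% of all peaks were lower. The 6 lower peaks were on 3 light chain genes, on the unconventional myosins MYO5A and MYO10 and on the kinase MYLK. MYO5A, the processive motor that carries vesicles along actin, had the largest called fall, at -0.85 in its 3' UTR (0.554-fold, ENSG00000197535, chromosome 15, 52313432 to 52317059, FDR 5.75e-05 per the authors' deposited table). Its exon peak had 0.53 with an FDR of 0.195 per the authors' deposited table. MYO10, the myosin of filopodial tips, had -0.36 in its 3' UTR (chromosome 5, 16665290 to 16665769, FDR 0.00955 per the authors' deposited table). MYLK, the light chain kinase, had -0.43 in its 3' UTR (chromosome 3, 123614008 to 123616430, FDR 0.000257 per the authors' deposited table).

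The light chains, which stiffen the lever arm of the motor, had 8 peaks on 5 genes. Of these 3 were called (37.5%, against a background of 17.1%), all below 0, on MYL6B, MYL6 and MYL12A, although MYL6 and MYL12A turned positive when the median of all peaks was subtracted. Of all 8 peaks 5 were negative and 3 positive, and MYL9, another regulatory light chain, had 0.72 with an FDR of 0.107 per the authors' deposited table. MYL6B, an essential light chain, had -0.44 in its 3' UTR (0.738-fold, ENSG00000196465, chromosome 12, 56157285 to 56157772, FDR 4.07e-08 per the authors' deposited table). The adjacent gene MYL6, the main non-muscle essential light chain, had -0.17 at a 5' UTR peak (chromosome 12, 56157951 to 56159647, FDR 0.0229 per the authors' deposited table) whose span also touches MYL6B. MYL12A, a regulatory light chain, had -0.22 in its 3' UTR (chromosome 18, 3255969 to 3256177, FDR 0.0166 per the authors' deposited table). With that median (-0.24) subtracted, MYL6 had 0.064 and MYL12A 0.017, while MYL6B stayed below 0 at -0.20.

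The higher myosin peaks were on 2 genes. MYO9B, an unconventional myosin whose tail inactivates RhoA, was higher in both of its peaks, at 0.48 over a span labelled 5' UTR (1.39-fold, ENSG00000099331, chromosome 19, 17075781 to 17102191, FDR 6.92e-06 per the authors' deposited table) and at 0.19 in exon 22 of 40 (17194581 to 17198146, FDR 0.00692 per the authors' deposited table). MYO18A, a Golgi-associated myosin, had 0.67 at a peak labelled 3' UTR (chromosome 17, 29086780 to 29090053, FDR 0.0186 per the authors' deposited table), and its 2 other peaks were positive and not called. The 3 higher myosin peaks all span 2000 bases or more, and 0 were left without such spans. The 5 conventional heavy chain genes with a peak, among them MYH9 and MYH10 of non-muscle myosin II, had 5 positive peaks. Their values ran from 0.22 to 1.85 per the authors' deposited table, and 0 were called (against a background of 17.1%). The MYH10 peak, at 0.22, names an exon of another gene identifier, and the MYH9 peak spans 22755 bases. MYL5 at 2.87 and MYO7B at 2.74 per the authors' deposited table had the largest values of the family without a call (FDR 0.334 and 0.0513).

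Tubulins had 9 peaks on 6 genes, with 1 called each way (11.1% each, against backgrounds of 10.6% lower and 6.52% higher). TUBB, a beta-tubulin of most cells, had -0.30 in its 3' UTR (0.812-fold, ENSG00000196230, chromosome 6, 30725276 to 30725426, FDR 4.07e-10 per the authors' deposited table). TUBA4A, an alpha-tubulin, was higher by 0.13 in a peak labelled 5' UTR (chromosome 2, 219250873 to 219251350, FDR 3.98e-11 per the authors' deposited table). Both changes were small with very small FDRs. Tubulin genes have near copies, and the placing of reads among them was not tested. All 4 3' UTR peaks of tubulin genes were negative, where 36.6% of all 3' UTR peaks were positive. All 5 others were positive, against 50.8% of all peaks outside 3' UTRs. Of the 9 tubulin peaks 7 were not called, with FDRs from 0.271 to 0.528 per the authors' deposited table. Among the 5 positive peaks, the TUBA4A exon peak at 1.42 lies outside the RefSeq bounds of that gene. Its span overlaps TUBA4B, and it names an exon of another gene identifier. With the median of all peaks subtracted, TUBB had -0.065.

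The CEP genes had 35 peaks on 19 genes and only 2 called peaks (5.71%, against a background of 17.1%). CEP55, which recruits the machinery that cuts the bridge between daughter cells, had -0.42 over exon 2 of 9 (0.746-fold, ENSG00000138180, chromosome 10, 93500207 to 93503234, FDR 0.00437 per the authors' deposited table). CEP170B, a relative of the centriolar protein CEP170, was higher by 0.26 over exon 10 of 19 (chromosome 14, 104885445 to 104889537, FDR 0.00851 per the authors' deposited table). Both called spans exceed 2000 bases, and 0 called CEP peaks were left without such spans. Of all 35 peaks 22 were positive (62.9%, against 44.7% of all peaks in the table). Among them were 7 of the 8 in 5' UTRs (87.5%, against 48.9% of all 5' UTR peaks), and 0 of these 8 were called. CEP85L holds 3 of the 7, including an overlapping pair whose longer entry spans 81192 bases. Without a call, the 5' UTR peaks of CEP135 and CEP126, proteins of the centriole and of its pericentriolar satellites, had 1.42 and 1.32 per the authors' deposited table (FDR 0.411 and 0.504).

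The IFT and BBS genes, whose products carry cargo within cilia and to the ciliary membrane, had 12 peaks on 8 genes, with 1 called (8.33%, against a background of 17.1%). IFT20, the IFT-B subunit that also sits at the Golgi, had -0.25 in its 3' UTR (0.843-fold, ENSG00000109083, chromosome 17, 28328415 to 28328893, FDR 0.0427 per the authors' deposited table). An entry over part of the same bases had -0.17 with an FDR of 0.320 per the authors' deposited table, and both lie within the bounds of TMEM97 as well. With the median of all peaks subtracted, the called IFT20 peak had -0.011. BBS12, a chaperonin-like protein of BBSome assembly, had -1.87 in its 5' UTR with an FDR of 0.0933 per the authors' deposited table. Of the 12 peaks 8 were negative and 4 positive (33.3% positive, against 44.7% of all peaks).

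Of 15 peaks on 8 genes of microtubule-associated proteins, 7 were called higher (46.7%, against a background of 6.52%), 1 lower and 7 not called. The 7 higher peaks fall in 5 places, since 2 pairs of them overlap. MAP1S, a short relative of MAP1A and MAP1B that links microtubules to autophagy, had 0.47 at a peak labelled 3' UTR (1.38-fold, ENSG00000130479, chromosome 19, 17726167 to 17728169, FDR 1.58e-16 per the authors' deposited table). A longer entry that overlaps it, 17727840 to 17734513, had 0.67 (FDR 0.00537 per the authors' deposited table). MAP6D1, a relative of the microtubule stabiliser MAP6, had 0.43 and 0.39 at 2 overlapping 3' UTR entries (chromosome 3, 183816042 to 183820263 and 183815778 to 183818073, FDR 0.00794 and 0.0174 per the authors' deposited table). The other MAP6D1 peak, in exon 1, had -1.64 and was not called (FDR 0.341 per the authors' deposited table). MAP10, a protein of the spindle midzone and midbody, had 0.45 (chromosome 1, 232805786 to 232808228, FDR 0.0195 per the authors' deposited table). MAP4, the main structural MAP of non-neuronal cells, had only 0.11 over exon 6 of 18 (chromosome 3, 47916237 to 47918829, FDR 0.00129 per the authors' deposited table). The count rests on wide spans: without peaks that span 2000 bases or more, 1 of the 7 higher peaks was left, an exon peak of MAP1B. The dropped spans ran from 2003 bases, at the shorter MAP1S entry and only just over the limit, to 6674 bases at the longer one. No share of all peaks under this limit was set beside the count.

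MAP1B, which binds microtubules in growing cell processes, was the gene called both ways. Its exon 5 of 7 held a peak at 0.44 (1.35-fold, ENSG00000131711, chromosome 5, 72198938 to 72199568, FDR 3.31e-08 per the authors' deposited table). Its 3' UTR held a peak at -0.78 (0.582-fold, chromosome 5, 72206265 to 72206505, FDR 0.000575 per the authors' deposited table). Both spans are short, 631 and 241 bases. Its relative MAP1A had 3 exon peaks at 1.49, -1.43 and 1.61 per the authors' deposited table, none of them called (FDR 0.0794, 0.441 and 0.413).

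**Figure D2:**
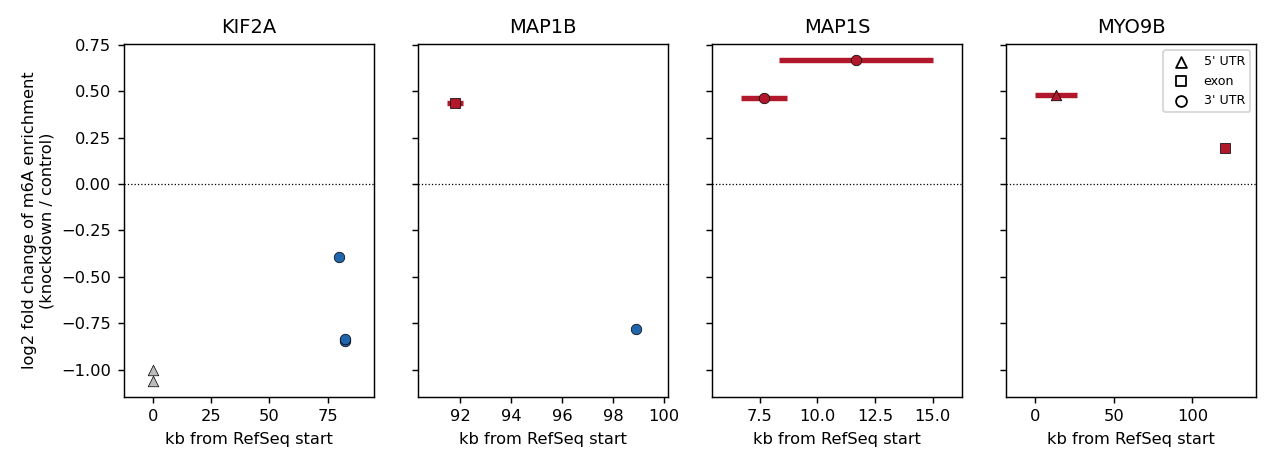
Peaks of 4 of the 5 genes with at least 2 called peaks (MAP6D1 has no start-site entry and is not drawn), by distance in kilobases from the RefSeq start of the gene (x axis, a scale for each gene; bars are genomic spans) and log2 fold change of m6A enrichment (y axis), with called lower peaks in blue, called higher in red and others in grey. MAP1B changes sign between its exon peak at 0.44 and its 3' UTR peak at -0.78, while the KIF2A peaks are all below 0 and those of MAP1S and MYO9B above 0.

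By the authors' region labels, which were not checked against transcripts, 15 of the 19 called lower peaks lay in 3' UTRs. Of 73 peaks of these genes in 3' UTRs, 15 were called lower (20.5%, background 15.9%) and 7 higher (9.59%, background 5.94%). Of 41 exon peaks 2 were lower (4.88%, background 5.30%) and 4 higher (9.76%, background 6.23%). Of 43 peaks in 5' UTRs 2 were lower (4.65%, background 8.79%) and 3 higher (6.98%, background 8.00%). The share in 3' UTRs was 46.5% of the peaks, close to the 42.7% of the whole table. Exon peaks of these genes had a median span of 920 bases against 329 in the table. The 7 higher 3' UTR peaks came from 5 genes, MAP1S, MAP6D1, MAP10, KIF3C and MYO18A, and those of the first 2 are overlapping pairs. Without spans of 2000 bases or more, 1 of the 7 was left, that of KIF3C. The MYO18A peak labelled 3' UTR, from 29086780, lies between its peaks labelled 5' UTR, from 29078287 and from 29166013. Its place in the transcript is therefore uncertain.

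**Figure D3:**
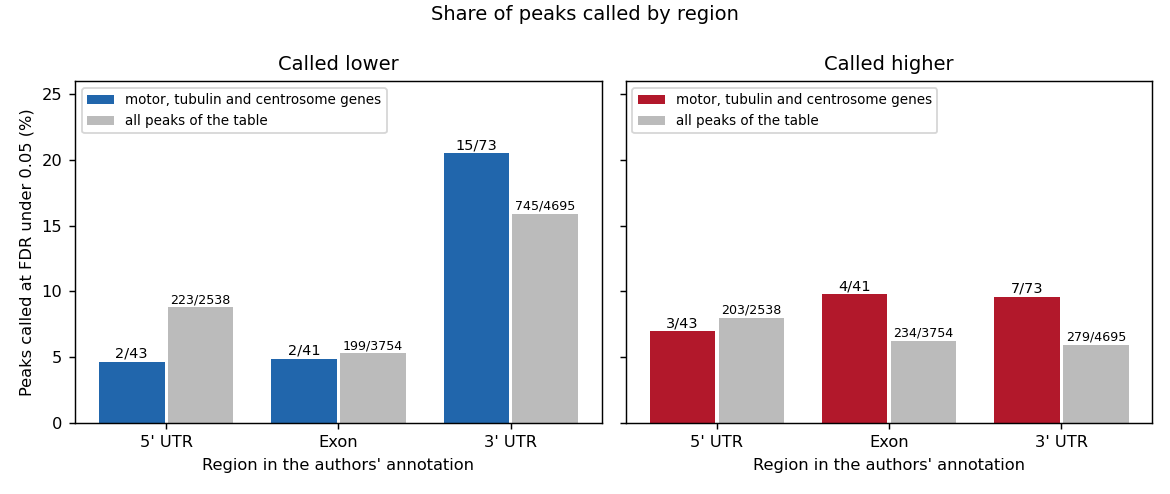
Share of peaks called lower (left) and higher (right) at an FDR under 0.05, in percent, for the peaks of these genes (coloured) and all peaks of the table (grey), by region; the numbers over the bars are called peaks over all peaks. The 3' UTR has the highest share of lower peaks in both sets, 20.5% and 15.9%.

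The pattern of MAP1B, KIFC1 and MYO5A, with the 3' UTR peak below 0 and a peak elsewhere above it, was then counted over all genes with peaks in both places, taking the median of each. There were 22 such genes here. The 3' UTR value was negative and the other positive in 11 of them (50.0%), and the reverse held in 2 (9.09%), DYNLL1 and MAP6D1. The exon peak of DYNLL1, at -0.58, names an exon of another gene identifier, and neither DYNLL1 peak was called. For KIF9, one of the 11, the other peaks had a median of only 0.066, between its called 5' UTR peak at -0.66 and an exon peak at 0.79 that was not called (FDR 0.158 per the authors' deposited table) and that names an exon of another gene identifier. Over the 999 such genes of the table these shares were 31.8% and 16.8%. The median difference, 3' UTR minus other peaks, was -0.54 on the log2 scale here and -0.12 over all such genes. The share of genes whose 3' UTR value was the lower one, whatever the signs, was nearly the same in both, 13 of 22 here (59.1%) and 57.1% of the 999. The count includes peaks that were not called, and only for MAP1B were both sides called. It also rests on the authors' region labels, which were not checked against transcripts. When only peaks within the RefSeq bounds of their gene were used, 11 of 21 genes had the pattern (52.4%, against 31.9% of 908 genes). Without spans of 2000 bases or more, 7 of 14 genes had it (50.0%, against 32.7% of 689 genes). The pattern was noticed in these values before it was counted.

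**Figure D4:**
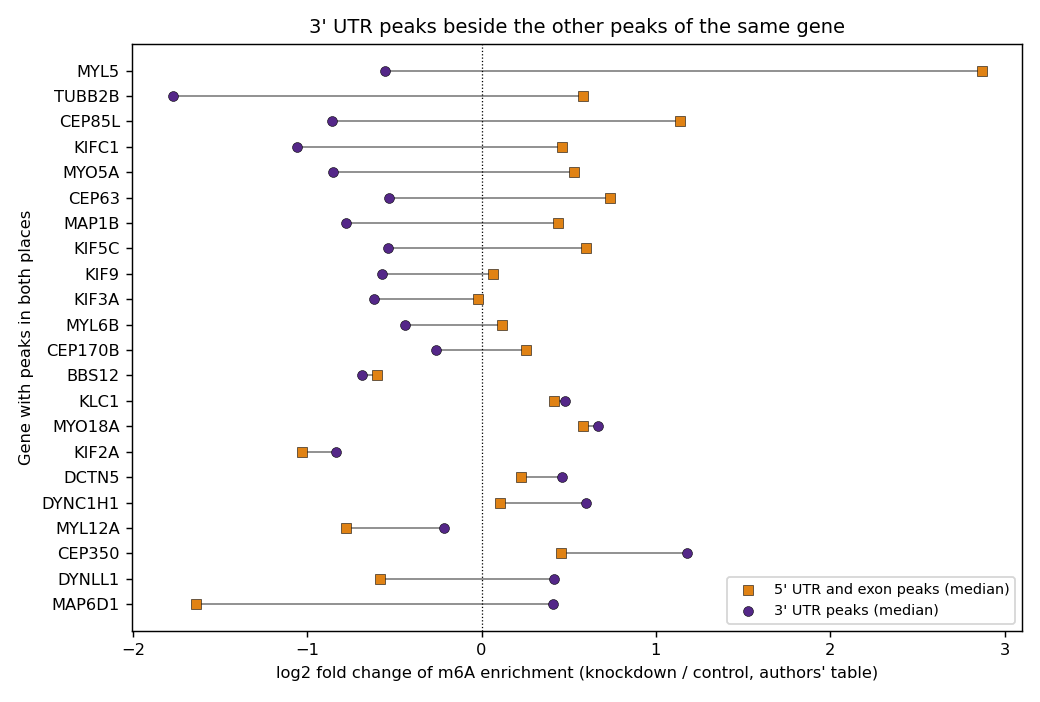
Median log2 fold change of m6A enrichment of the 3' UTR peaks (violet circles) and of the 5' UTR and exon peaks (orange squares) of each of the 22 genes with peaks in both places, sorted by the difference. In 11 genes, among them MYL5, KIFC1, MYO5A and MAP1B, the circle lies below 0 and the square above it.

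Partners of these genes outside the symbol rule were counted from 4 lists. Of 20 dynein adaptors and regulators, 12 have a peak, and of their 23 peaks 5 were called lower and 1 higher (21.7% and 4.35%, against backgrounds of 10.6% and 6.52%). Of the 23 peaks 21 were negative and 2 positive (8.70% positive, against 44.7% of all peaks). The lower peaks were in the 3' UTRs of TRAK1, an adaptor for mitochondria, at -0.64, PAFAH1B1 (LIS1), which opens the dynein motor, at -0.62, HOOK2, an adaptor, at -0.31 in both of 2 overlapping entries, and NINL at -0.89 per the authors' deposited table. Among all 3' UTR peaks of the table, 15.9% were called lower and 36.6% were positive. For this list, counting only peaks within the gene bounds, which leaves out HOOK2, or only spans under 2000 bases gave 3 lower peaks each. With the median of all peaks subtracted, the HOOK2 entries had -0.075 and -0.079, while the lower peaks of TRAK1, PAFAH1B1 and NINL were at -0.386 or below. NINL, a centrosomal protein related to ninein, was also higher in an exon at 0.56 per the authors' deposited table. Of 24 myosin regulators and actin partners, 15 have a peak, with 6 of 29 peaks lower and 3 higher (20.7% and 10.3%, against backgrounds of 10.6% and 6.52%). Here too most peaks were negative, 24 against 5 positive (17.2% positive, against 44.7% of all peaks). Within the gene bounds 6 lower and 2 higher peaks were left. CDC42BPA and PPP1R12A, a kinase and a phosphatase subunit that act on the light chain, had -0.71 and -0.44 in their 3' UTRs per the authors' deposited table. The tropomyosins TPM4 and TPM1 had -0.28 and -0.14 per the authors' deposited table. With the median of all peaks subtracted, TPM1 turned to 0.097 and TPM4 had -0.047, while CDC42BPA and PPP1R12A had -0.475 and -0.205. MPRIP, which anchors the phosphatase to actin, had an exon peak at 0.69 and 3' UTR peaks at -0.24 and 0.32 per the authors' deposited table. The negative MPRIP peak had -0.009 with that median subtracted. PPP1R12C, another subunit of that phosphatase, had 0.15 per the authors' deposited table.

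Genes of the microtubule end, of severing and of tubulin modification had 2 of 31 peaks called, on 21 of 38 genes with a peak, both higher and both over exons (6.45%, against a background of 17.1%). These were CAMSAP1, which caps minus ends, at 0.34 and CLIP2, a plus-end protein, at 0.31 per the authors' deposited table. Of 28 centriole and spindle pole genes, 10 have a peak, with 1 of 20 peaks lower and 3 higher (5.00% and 15.0%, against backgrounds of 10.6% and 6.52%). CCP110, which caps centrioles, had -1.27 in its 3' UTR per the authors' deposited table (FDR 0.0407). STIL, PCNT and NUMA1, of centriole assembly, the pericentriolar matrix and the spindle pole, had 0.23, 0.32 and 0.14 over exon-labelled spans per the authors' deposited table. Each called peak of these last 2 lists spans 2000 bases or more.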

How the data were processed

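m6A immunoprecipitation and input libraries of BCPAP cells were compared by the submitters between METTL3 knockdown and control. Tools listed in the submitters' processing notes, with no roles or versions, are edgeR, ChIPseeker, HOMER, HISAT2, StringTie and fastp; the listed build is GRCh38 (hg38). Filters and any pooling of replicates: not given in the sources used here. Per peak, the log2 fold change and the p-value were deposited by the authors, per the file headers. The FDR column, a score in the deposited table, was read as the log10 of the FDR from its header and raised to the linear scale; no test was added. It reaches -434; where a Benjamini-Hochberg value recomputed here from the deposited p-values was under 0.1 and above 0, its slope on the log10 of that value was 1.00 and the FDR a median 2.00 times larger. Spans include introns, and the table has no strand.

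Members and families were taken by symbol prefix, and a count is of peaks unless genes are named. Named genes were up to 4 called falls and 4 called rises per family, 1 peak per gene, and genes with 2 or more called peaks. This gave 22 of the 27 called genes. The other 5 (KIF3A, KIF18B, MYL6, MYL12A and MAP4), peaks named without a call, the order of roles, the split of myosins and kinesins into chains, and the comparison of 3' UTR with other peaks within a gene were chosen after their values were seen. Members and lists were chosen with earlier results of these data known. 1 called peak of the related lists is counted but not reported here by name. All 93 symbols matched RefSeq. The planned motif and stop-codon counts under the peaks were not run, since no genome was used here; start-site windows of RefSeq were searched instead. The adjustment and the merging of overlapping peaks were tested on simulated data. Python 3.11.15, pandas 2.3.3 and matplotlib 3.10.9 were used.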

Additional observations from a re-analysis of the deposited data

How the results depend on the processing

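No paired analysis was possible because the table holds no values per library; for the same reason no library could be left out. The planned motif windows under the peaks, their wider alternative and the stop-codon positions were not run. Main counts were 19 lower and 14 higher peaks on 16 lower and 11 higher genes. At an FDR under 0.01, 12 lower peaks and 10 lower genes were left; kinesins had 4 lower and 1 higher, IFT and BBS 0 lower, 5' UTRs 1 lower, exons 1 lower and 3' UTRs 4 higher. An FDR under 0.1 and recomputed Benjamini-Hochberg values gave the same counts where they moved by over 1.5 times: 4 higher kinesin peaks, 5 lower and 1 higher dynein and dynactin peaks, 2 lower CEP peaks, 2 lower IFT and BBS peaks, 4 lower in 5' UTRs and 5 lower in exons. Requiring a log2 fold change of 0.5 or more in size left 8 lower and 3 higher peaks and 6 lower and 2 higher genes; kinesins had 1 higher, myosins 1 lower and 1 higher, microtubule-associated proteins 1 higher, and dynein, tubulins, CEP, IFT and BBS 0 called. By region this gave 1 lower and 1 higher in 5' UTRs, 1 lower and 0 higher in exons, and 6 lower and 2 higher in 3' UTRs. Spans under 2000 bases left 4 higher peaks and 10 lower and 4 higher genes; kinesins had 5 lower, myosins 0 higher, CEP 0 called, microtubule-associated proteins 1 higher, 5' UTRs 1 lower, exons 0 lower and 1 higher, and 3' UTRs 1 higher. The 3 stricter settings drop peaks by construction. No shares of all peaks were set beside the called counts under these other settings. Subtracting the median of all peaks turned MYL6 to 0.064 and MYL12A to 0.017, which gave 5 higher myosin peaks and 1 lower 5' UTR peak; the other 31 called peaks kept their sign. The member median moved from 0.238 to 0.473 with it, to 0.227 in the gene bounds, to 0.244 without MYLK and to 0.232 with spans under 2000 bases. Peaks in the gene bounds, 1 peak per place and the list without MYLK kept every member count within 1.5 times. The start windows held GGAC with any base in 27.3% and GGACT in 9.09%. Of settings added after seeing the data, spans under 2000 bases left 7 of the 11 genes with 3' UTR peaks below 0 and others above.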
